A study of Mus musculus with 9 samples.

Results

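Cd226, Tigit, Cd96 and Crtam encode 4 lymphocyte receptors of the immunoglobulin superfamily whose ligands are nectins and nectin-like adhesion molecules. They were taken by symbol from the array annotation, which gave 1 row for each, so that 4 genes of 19938 tested are described. Expression was measured on 9 Affymetrix Mouse Gene 1.0 ST arrays with total RNA of innate lymphocytes from the small-intestinal epithelium. The donors were NOD-SCID mice aged 8 to 10 weeks, a strain without mature T and B cells, and each sort took CD3- CD45+ cells at a purity above 98%. The cells differed in Ly49E, an inhibitory receptor of the Ly49 family encoded by Klra5, and in CD8aa, the homodimer of the CD8 alpha chain. The 3 populations were Ly49E+CD8aa+, Ly49E+CD8aa- and Ly49E-CD8aa+, each with 3 arrays that the labels call biological replicates. How many mice each array stands for was not given in the sources used here, and p-values measure the spread between these RNA samples.

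The receptors share ligands and pull in different directions. CD226 (DNAM-1) activates NK and T cells on binding CD155 (Pvr) and CD112 (Nectin2), while TIGIT binds the same ligands with an inhibitory tail and competes with CD226. CD96 (Tactile) also binds CD155 and has been described mainly as an inhibitory receptor of mouse NK cells. CRTAM, induced on activated cytotoxic lymphocytes, binds the nectin-like molecule Cadm1 and is known for its part in the residence of intraepithelial lymphocytes in the gut.

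Levels below are deposited log2 values, on which 1 unit is a factor of 2. Levels of different genes are not compared as amounts of transcript because their probes differ. Ranks among genes, and statements beside array medians or percentiles, describe array signal only. Array medians ran from 5.76 to 5.82. Ptprc, which encodes CD45, averaged 11.83 in the Ly49E+CD8aa+ cells, 11.82 in the Ly49E+CD8aa- cells and 11.85 in the Ly49E-CD8aa+ cells. Klra5, whose probes are open to cross-hybridisation with other Ly49 genes, averaged 11.40 and 11.43 in the Ly49E+ populations against 6.59 in Ly49E-CD8aa+.

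Other sort markers set Ly49E+CD8aa- apart from both CD8aa+ populations. Its Cd8a mean was 11.42, against 12.55 in Ly49E+CD8aa+ and 12.58 in Ly49E-CD8aa+, so the label CD8aa- did not stand for a missing Cd8a transcript. Cd8b1, the CD8 beta chain, averaged 8.34 there against 5.28 and 5.30. Cd3e, a chain of the CD3 complex that the sort gated out at the surface, averaged 10.70 there against 11.75 and 11.67, and was thus among the brighter genes in cells sorted as CD3-. The summed linear level of 5 T cell markers (Cd4, Cd5, Cd6, Cd3d, Cd3g) ran from 7339 to 7685 in Ly49E+CD8aa-, below the 8738 to 9183 of Ly49E+CD8aa+ and the 8436 to 8909 of Ly49E-CD8aa+. The brightest of the 5 was Cd3g, so it weighed most in these sums. Its means were 12.72 in Ly49E+CD8aa- and 12.93 and 12.94 in the CD8aa+ populations. Cd3d averaged 9.17 in Ly49E+CD8aa- against 9.84 in Ly49E+CD8aa+ and 9.46 in Ly49E-CD8aa+, with overlap of arrays. Cd4 went the other way, with 5.80 there against 5.16 and 5.33, while Cd5 (5.78, 5.78 and 5.81) and Cd6 (5.61, 5.65 and 5.59) had close means. Limma called 0 of these 5 in the 3 comparisons, with 0, 3 and 2 at an unadjusted p under 0.05. These shifts accompany every receptor difference of Ly49E+CD8aa- given below, and their part in it was not tested.

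Promoter sequences from RefSeq (build GRCm38.p6) were at hand for 2 of the 4 receptors, Tigit and Cd96, both on the minus strand of chromosome 16. They are shown as the sequences at hand for the members, and each holds 1 match to the core letters bound by Runx factors, regulators of cytotoxic and intraepithelial lymphocytes. Each run gives the 250 bases before a listed start site, 5′ to 3′, at chr16:43664185-43664434 for Tigit and chr16:46120249-46120498 for Cd96, with the match in capitals.
Tigit: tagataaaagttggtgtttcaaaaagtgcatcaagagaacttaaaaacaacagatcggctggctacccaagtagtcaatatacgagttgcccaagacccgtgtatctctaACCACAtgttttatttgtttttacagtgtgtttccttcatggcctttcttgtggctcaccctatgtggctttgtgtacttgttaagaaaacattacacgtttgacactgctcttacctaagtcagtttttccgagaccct
Cd96: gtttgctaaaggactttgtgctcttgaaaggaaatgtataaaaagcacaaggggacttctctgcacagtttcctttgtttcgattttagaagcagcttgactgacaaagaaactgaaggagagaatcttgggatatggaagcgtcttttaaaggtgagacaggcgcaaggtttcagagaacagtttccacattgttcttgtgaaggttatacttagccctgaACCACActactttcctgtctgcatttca
The match to TGTGGT or its complement ACCACA begins 140 bases before the start site in Tigit and 28 bases before it in Cd96. Of 32851 promoter windows of the same length, 14.05% hold these letters on either strand. The T-box letters TCACAC or GTGTGA, which do not overlap the Runx letters, have 0 matches in both windows and occur in 12.3% of all. These matches describe the letters, and no binding was measured.

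Cd226 and Crtam differed strongly between the populations, and Tigit and Cd96 stayed within narrow bounds. Over the 3 populations the moderated F test of limma, adjusted by Benjamini-Hochberg over all genes, called 2 of the 4 receptors, beside 2.03% of all genes. The adjusted p was 3.00e-05 for Cd226 and 8.08e-06 for Crtam, and 0.438 for Tigit and 0.555 for Cd96.

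**Figure D1:**
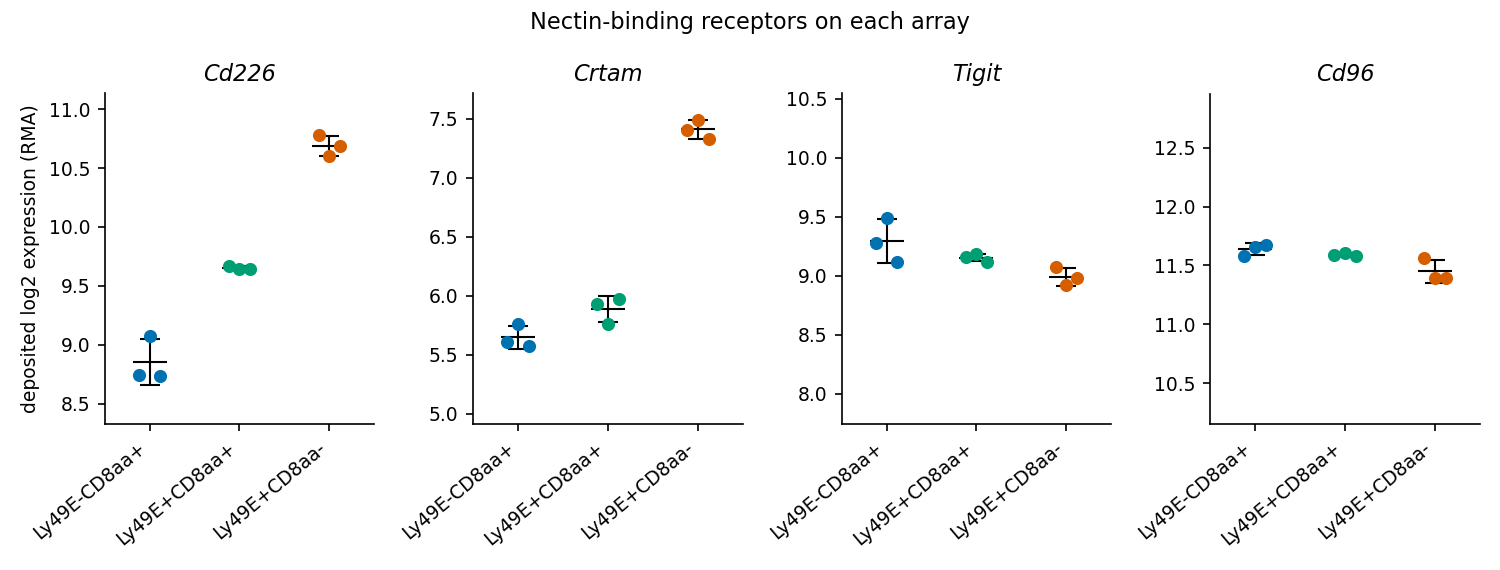
Deposited log2 expression (vertical axis, every panel spanning the same number of log2 units) of the 4 receptors in Ly49E-CD8aa+ (blue), Ly49E+CD8aa+ (green) and Ly49E+CD8aa- (orange). Points are arrays and black bars are mean and SD over 3 arrays; Cd226 rises in steps from 8.85 to 10.69, Crtam stands out in Ly49E+CD8aa-, and the Tigit and Cd96 means differ by less than 0.31.

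Cd226, the activating receptor, formed a graded series. The Ly49E-CD8aa+ arrays read 8.74, 9.08 and 8.74, those of Ly49E+CD8aa+ 9.67, 9.64 and 9.64, and those of Ly49E+CD8aa- 10.78, 10.61 and 10.69. Every Ly49E+CD8aa- array lay above every Ly49E+CD8aa+ array, and every one of those above every Ly49E-CD8aa+ array. Such an order without overlap was seen in 37 of 19938 genes (0.186%). Crtam was among them, though its CD8aa+ populations were parted only by 5.761 against 5.758. In Cd226, Ly49E+CD8aa- exceeded Ly49E-CD8aa+ by 1.84 (SE 0.0971, limma adjusted p = 1.02e-05), which is 3.57-fold.

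Ly49E+CD8aa+ cells stood between the other populations in Cd226. Their difference from Ly49E+CD8aa- was -1.04 (95% interval -1.26 to -0.82, limma adjusted p = 0.000518), or 2.05-fold. Their difference from Ly49E-CD8aa+ was 0.80 (95% interval 0.58 to 1.02, adjusted p = 0.0292), or 1.74-fold. They lay at 43.5 ± 0.910% (SD, n = 3) of the distance from the mean of Ly49E-CD8aa+ up to the mean of Ly49E+CD8aa-. That SD covers the Ly49E+CD8aa+ arrays alone, of which replicates 2 and 3 had the same value. It leaves out the spread of both end means, so the position is less certain than the SD shows. In sorted populations, a smaller share of cells with the transcript and less transcript per cell cannot be told apart.

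The smaller of these Cd226 differences, that between the CD8aa+ populations, was kept in size but not in its call when arrays were left out. Without 1 array the difference ran from 0.74 to 0.91, and it passed only without Ly49E-CD8aa+ replicate 2 (adjusted p = 0.00445), the array in which Cd226 read 9.08. Without Ly49E+CD8aa+ replicates 1, 2 and 3 the limma adjusted p was 0.162, 0.156 and 0.133. Without Ly49E+CD8aa- replicates 1, 2 and 3 it was 0.0671, 0.0698 and 0.0740, and without Ly49E-CD8aa+ replicates 1 and 3 it was 0.0982 and 0.102. It was 0.0785 with the replicate number as a block and 0.215 in a fit of the 6 arrays alone.

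Crtam, the receptor for Cadm1, separated Ly49E+CD8aa- from both CD8aa+ populations. The Ly49E+CD8aa- arrays read 7.41, 7.49 and 7.33, those of Ly49E+CD8aa+ 5.93, 5.76 and 5.97, and those of Ly49E-CD8aa+ 5.61, 5.76 and 5.57. The gap below Ly49E+CD8aa- was wide, while the lowest Ly49E+CD8aa+ array and the highest Ly49E-CD8aa+ array were all but equal, at 5.761 and 5.758. Ly49E+CD8aa- exceeded Ly49E-CD8aa+ by 1.77 (SE 0.0836, limma adjusted p = 4.97e-06), a 3.40-fold difference. Ly49E+CD8aa+ differed from Ly49E+CD8aa- by -1.52 (SE 0.0836, adjusted p = 1.41e-05), or 2.88-fold.

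Between the CD8aa+ populations the Crtam difference was 0.24 (95% interval 0.05 to 0.43) and did not pass (limma adjusted p = 1, unadjusted p = 0.0178). Ly49E+CD8aa+ lay at 13.7 ± 6.36% (SD, n = 3) of the way from Ly49E-CD8aa+ to Ly49E+CD8aa-. The spread of both end means is again left out of that SD. In both CD8aa+ populations Crtam was close to the array medians.

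Tigit, the inhibitory receptor that competes with CD226, had population means within 0.31 log2 units of each other. Arrays of Ly49E+CD8aa+ read 9.16, 9.18 and 9.12, those of Ly49E+CD8aa- 9.07, 8.92 and 8.98, and those of Ly49E-CD8aa+ 9.28, 9.49 and 9.12. Ly49E+CD8aa- was the lowest, with no array above those of the other populations, and Ly49E+CD8aa+ overlapped with Ly49E-CD8aa+. The difference between Ly49E+CD8aa- and Ly49E-CD8aa+ was -0.31 (95% interval -0.52 to -0.09), with a limma adjusted p of 0.218 and an unadjusted p of 0.00970. Ly49E+CD8aa+ differed from Ly49E+CD8aa- by 0.16 (95% interval -0.05 to 0.38) and from Ly49E-CD8aa+ by -0.14 (95% interval -0.35 to 0.07).

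Cd96, the further CD155 receptor, had a mean signal over the 9 arrays above that of 99.2% of genes. Arrays of Ly49E+CD8aa+ read 11.59, 11.60 and 11.58, those of Ly49E+CD8aa- 11.56, 11.40 and 11.39, and those of Ly49E-CD8aa+ 11.58, 11.66 and 11.68. Ly49E+CD8aa- was again the lowest without overlap, by a margin that did not pass. The difference between Ly49E+CD8aa- and Ly49E-CD8aa+ was -0.19 (95% interval -0.34 to -0.03, limma adjusted p = 0.331). Ly49E+CD8aa+ differed from Ly49E+CD8aa- by 0.14 (95% interval -0.01 to 0.29) and from Ly49E-CD8aa+ by -0.05 (95% interval -0.20 to 0.11).

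Read by comparison, 1 of 4 receptors, Cd226, was called between the CD8aa+ populations, where 0.13% of all genes were called either way and 0.0201% were called higher in the Ly49E+ cells. Cd226 and Crtam were also free of overlap between arrays there, beside 6.25% of genes either way, 2.88% higher and 3.38% lower. Ly49E+CD8aa+ against Ly49E+CD8aa- had 2 of 4 called, both lower, beside 1.7% of genes called either way, 0.476% higher and 1.22% lower. All 4 receptors were free of overlap, Tigit and Cd96 with higher values and Cd226 and Crtam with lower ones, beside 12.9% of genes either way, 7.41% higher and 5.52% lower. Ly49E+CD8aa- against Ly49E-CD8aa+ had 2 of 4 called, both higher, beside 2.15% called either way and 1.35% called higher. Again all 4 were free of overlap, 2 with each sign, beside 12.7% either way, 5.29% higher and 7.45% lower. The median difference of the 4 receptors was 0.10, -0.45 and 0.79 in the 3 comparisons, beside medians near 0 over all genes. Each population enters a pair of these comparisons, so their results share arrays.

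**Figure D2:**
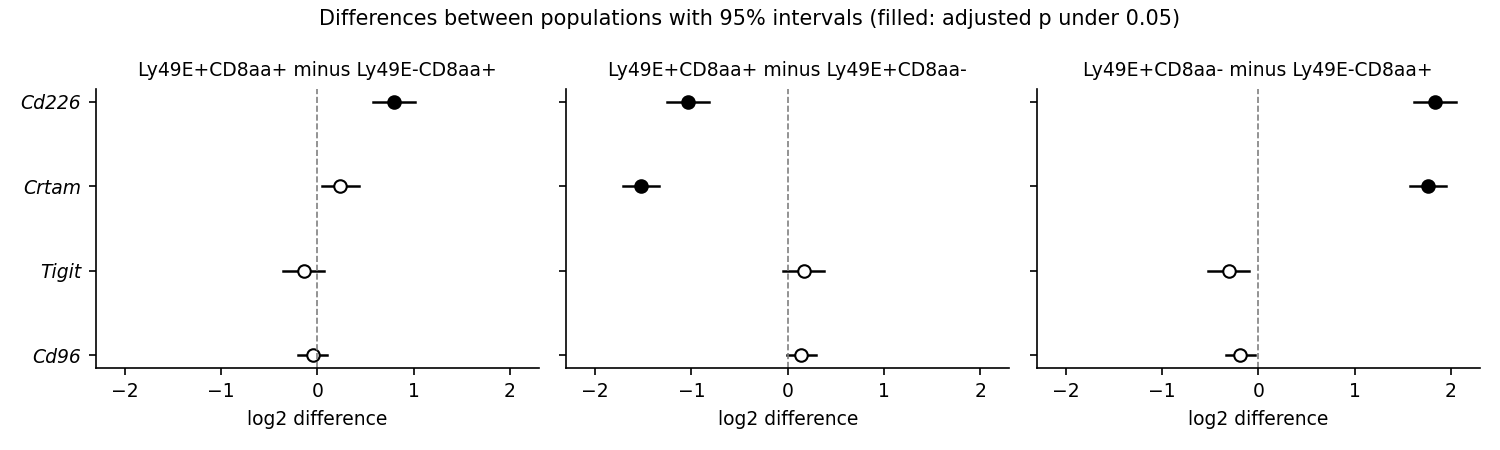
Log2 differences of the 4 receptors (horizontal axis) in the 3 comparisons named above the panels, with 95% intervals from the limma fit, unadjusted for multiple testing. Filled points passed at an adjusted p under 0.05; Cd226 passed in all 3 comparisons, Crtam in 2, and Tigit and Cd96 in 0.

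Whether the receptors changed unequally was tested on the log2 ratio of each pair within an array, by an exact permutation test over the assignments of the 9 arrays to the 3 populations, adjusted over 6 pairs. The ratio of Cd226 to Tigit, receptors of shared ligands and opposite sign, was higher than in Ly49E-CD8aa+ by a mean of 0.94 in Ly49E+CD8aa+ and 2.14 in Ly49E+CD8aa- (log2). The SD of the ratio within a population (n = 3) was 0.0817 in Ly49E-CD8aa+, 0.0330 in Ly49E+CD8aa+ and 0.0140 in Ly49E+CD8aa-. The ratio shifted 4.41-fold in favour of Cd226 from Ly49E-CD8aa+ to Ly49E+CD8aa-. Over the 3 populations, the exact permutation test gave an adjusted p of 0.00536, from a raw p of 0.00357, the smallest it can give. Such a p covers any change among the 3 populations and not a shift between single populations. The 3 arrays of Ly49E-CD8aa+ spread less in this ratio than in Cd226 (SD 0.194) or Tigit (SD 0.185) alone, and replicate 2 read highest in both genes.

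The ratio of Cd226 to Cd96 shifted 4.07-fold in the same direction, and the exact permutation test over the populations gave the same p. Tigit and Cd96 fell against Crtam, with log2 changes of -2.07 and -1.95 from Ly49E-CD8aa+ to Ly49E+CD8aa-. For both ratios the exact permutation test over all populations gave an adjusted p of 0.00536. The ratios that set Cd226 or Crtam against Tigit or Cd96 largely restate the single-gene differences above. They share genes and arrays, so their equal p-values are not separate evidence. Tigit against Cd96 did not pass (exact permutation test, adjusted p = 0.479), with mean ratios of -0.10 in Ly49E+CD8aa+ (SD 0.0230) and -0.12 in Ly49E+CD8aa- (SD 0.0402) relative to the mean of Ly49E-CD8aa+ (SD 0.198). This value depended on 1 array, and without Ly49E-CD8aa+ replicate 3 the adjusted p was 0.0171.

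Cd226 and Crtam themselves did not change in parallel (exact permutation test, adjusted p = 0.0257). Relative to the mean of Ly49E-CD8aa+ (SD 0.0981), their log2 ratio was 0.07 in Ly49E+CD8aa- (SD 0.143) and 0.56 in Ly49E+CD8aa+ (SD 0.108). Ly49E+CD8aa+ cells carried an intermediate level of Cd226 beside a Crtam level near the low end.

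**Figure D3:**
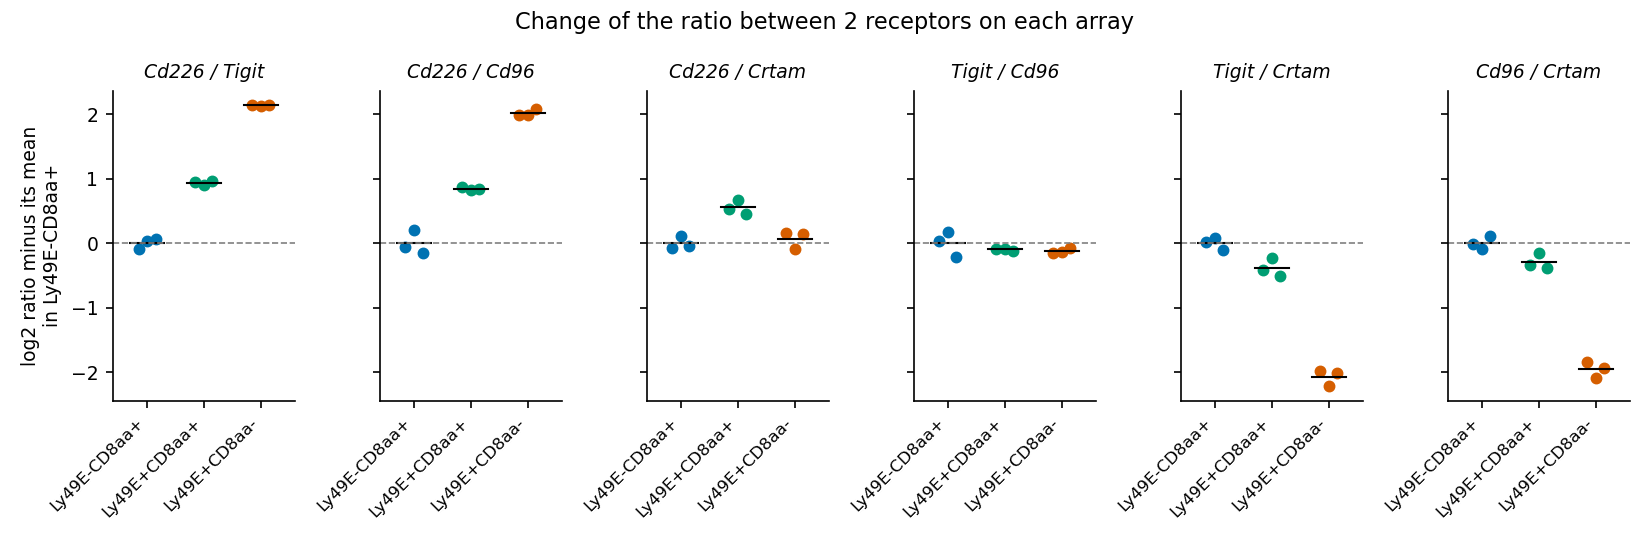
Log2 ratio of each pair of receptors on each array, relative to its mean in Ly49E-CD8aa+ (vertical axis), in Ly49E-CD8aa+ (blue), Ly49E+CD8aa+ (green) and Ly49E+CD8aa- (orange); points are arrays and black lines are means of 3. Cd226 against Tigit climbs in 2 steps to 2.14, Cd226 against Crtam peaks in Ly49E+CD8aa+ at 0.56, and Tigit against Cd96 stays between -0.22 and 0.17.

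Dendritic cell and phagocyte markers differed between Ly49E-CD8aa+ and each of the Ly49E+ populations. Of 15 markers, limma called 5 lower and 0 higher in the Ly49E+ member of the CD8aa+ populations, namely Siglech, Cd209d, Cybb, Mpeg1 and Cd180. Of all genes, 0.11% were called lower there and 0.0201% higher. Between Ly49E+CD8aa- and Ly49E-CD8aa+, 7 markers were lower and 1, Batf3, was higher, beside 0.802% and 1.35% of all genes. Between the Ly49E+ populations 0 of 15 passed, beside 1.7% of all genes, and 3 of the 15 had an unadjusted p under 0.05. The summed linear level of the list was 1619 to 2245 over the Ly49E-CD8aa+ arrays, 1249 to 1414 over those of Ly49E+CD8aa+ and 1396 to 1662 over those of Ly49E+CD8aa-. The brightest of the 15 was Itgax, so it weighed most in these sums, and it was not called in any comparison. It averaged 9.52 in Ly49E-CD8aa+, 9.48 in Ly49E+CD8aa+ and 9.86 in Ly49E+CD8aa-. Xcr1, Clec9a and Adgre1 had means under the 25th percentile of all values. The 15 markers were chosen with earlier results of these data known, so their counts beside all genes do not test for a cell type. Whether such cells were in the sorts, and their part in the Cd226 difference, was not tested.

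The other nectin and nectin-like molecules gave no call. Of 11 listed, 9 were measured, namely the CD226, TIGIT and CD96 ligand Pvr, Nectin1 to 4 (the nectins, cell adhesion molecules of epithelia and other tissues), Cadm1, Cadm3, Cadm4, and Afdn, the actin-binding partner of nectins. In these comparisons, taken in the order above, limma called 0 of 9 in each, with 1, 0 and 3 at an unadjusted p under 0.05. Their median differences were 0.00454, 0.04 and -0.04, beside -0.000488, 0.03 and -0.02 over all genes.

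Pvr, the shared ligand, averaged 6.61 in both Ly49E+ populations and 6.57 in Ly49E-CD8aa+. Cadm1, the ligand of CRTAM, had a difference of -0.41 between Ly49E+CD8aa- and Ly49E-CD8aa+ (95% interval -0.81 to -0.02, adjusted p = 0.454), and its Ly49E-CD8aa+ replicate 1 stood high at 6.31 beside 5.56 and 5.62. Nectin1 had the largest positive value of the list in that comparison, 0.44 (95% interval 0.11 to 0.77, adjusted p = 0.267). Ligand transcripts may come from any cell in a sort, and all 8 enterocyte markers were above the 25th percentiles of the arrays. Means of these markers ran from 6.14 for Slc5a1 to 11.18 for Apoa1, beside array medians of 5.76 to 5.82. Their summed linear level was 5725 to 7802 over the Ly49E+CD8aa+ arrays, 4967 to 7770 over those of Ly49E+CD8aa- and 4649 to 8169 over those of Ly49E-CD8aa+. Limma called 0 of the 8 in the 3 comparisons, with 0, 1 and 0 at an unadjusted p under 0.05, and their part in the ligand values was not tested. Alpi, a brush border phosphatase among them, read highest in replicate 1 of each population (8.92, 8.93 and 8.88) and lowest in replicate 3 (7.58, 7.39 and 7.34). Vil1, Apoa1 and Krt20 had the same order in each population, while Epcam, Fabp2, Cdh1 and Slc5a1 did not. In Ly49E+CD8aa+, Epcam went from 8.79 in replicate 1 up to 9.02 in replicate 3. With the replicate number as a block, chosen after the data were seen, the median SE over the 8 went from 0.311 to 0.137, and limma again called 0, with 0, 1 and 0 at an unadjusted p under 0.05.

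Among 17 measured signalling partners, 2 passed, both chains of the integrin LFA-1, which associates with CD226 on lymphocytes. Both passed between Ly49E+CD8aa+ and Ly49E+CD8aa-, where 1.7% of all genes were called either way. They also passed between Ly49E+CD8aa- and Ly49E-CD8aa+, where 2.15% were called. Itgal, the alpha chain, read 8.37, 8.18 and 8.09 on the Ly49E+CD8aa- arrays, 5.26, 5.48 and 5.52 on those of Ly49E+CD8aa+, and 5.94, 5.93 and 5.33 on those of Ly49E-CD8aa+. Its Ly49E+CD8aa- arrays stood far above the rest, as in Crtam, and the CD8aa+ populations overlapped. The Itgal difference was 2.48 (SE 0.163, limma adjusted p = 4.83e-05) between Ly49E+CD8aa- and Ly49E-CD8aa+, and -2.80 (SE 0.163, adjusted p = 2.15e-05) between Ly49E+CD8aa+ and Ly49E+CD8aa-.

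Itgb2, the beta chain, went the other way by a small amount. It read 9.18, 9.15 and 9.16 on the Ly49E+CD8aa- arrays, 9.54, 9.66 and 9.57 on those of Ly49E+CD8aa+, and 9.50, 9.53 and 9.64 on those of Ly49E-CD8aa+. The Ly49E+CD8aa- arrays were below all others, with a difference of -0.39 from Ly49E-CD8aa+ (SE 0.0655, limma adjusted p = 0.0151) and one of 0.42 for Ly49E+CD8aa+ minus Ly49E+CD8aa- (adjusted p = 0.0105). The former was lost when Ly49E+CD8aa- replicate 1, 2 or 3 was left out (limma adjusted p = 0.0537, 0.0598 and 0.0611) and without Ly49E-CD8aa+ replicate 3 (0.0562), the latter without Ly49E+CD8aa+ replicate 2 (0.0525).

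The kinases, adaptors and phosphatases downstream of the receptors did not pass. Plcg2, a phospholipase that acts downstream of CD226, was the nearest, with -0.29 between Ly49E+CD8aa- and Ly49E-CD8aa+ (95% interval -0.43 to -0.15, adjusted p = 0.0552). Fyn, the kinase that phosphorylates CD226, had -0.18 and Inpp5d, the phosphatase SHIP1 recruited by TIGIT, -0.17 in that comparison. Over the 17 genes, 0, 3 and 6 had an unadjusted p under 0.05 in the order of comparisons above, with medians of -0.05, -0.01 and -0.02.

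**Figure D4:**
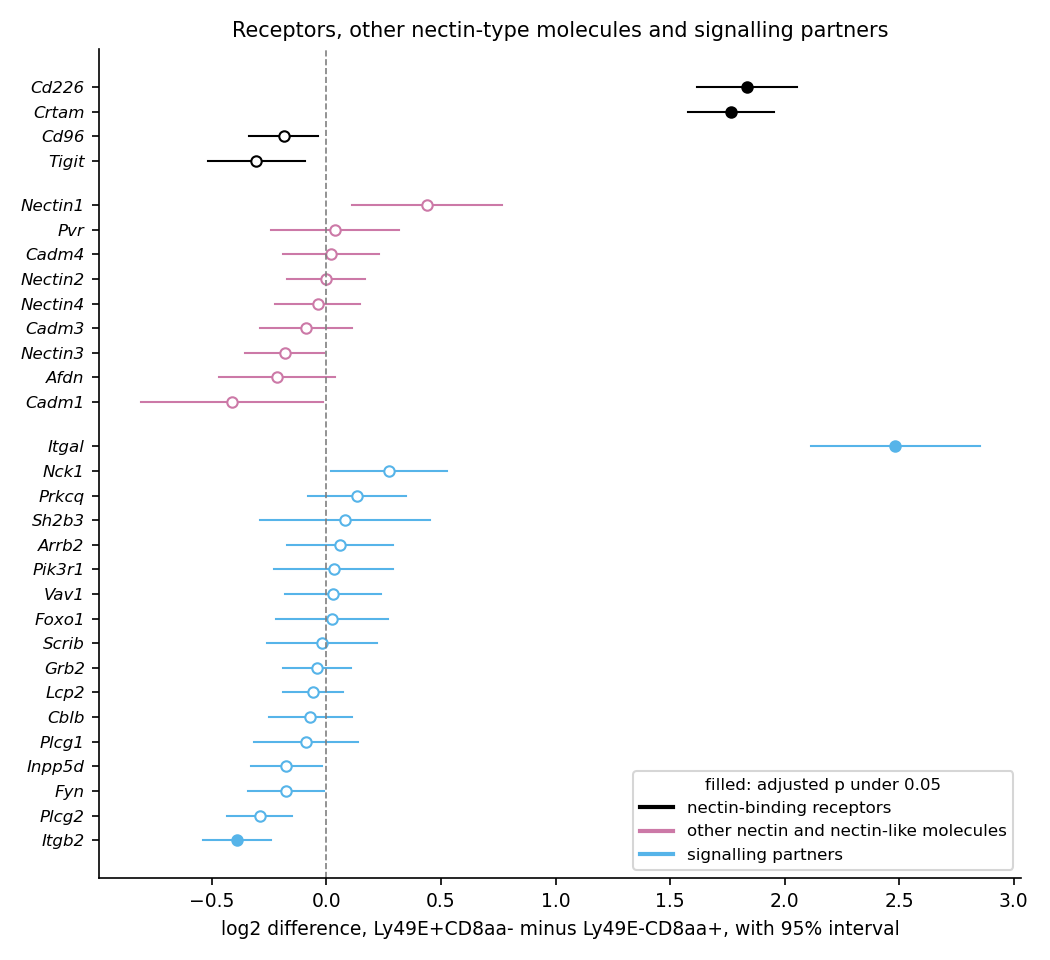
Log2 difference between Ly49E+CD8aa- and Ly49E-CD8aa+ (horizontal axis) with 95% intervals, unadjusted for multiple testing, for the 4 receptors (black), 9 other nectin-type molecules (pink) and 17 signalling partners (light blue). Filled points passed at a limma adjusted p under 0.05: Cd226, Crtam and Itgal lie at 1.77 or above, and Itgb2 at -0.39.

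The genes of likest pattern were sought by the root mean square difference over the 9 arrays between values centred on each gene's mean. For Cd226, of 18599 genes, they were Rnu3a (0.261 log2 units), Crtam (0.266) and Icam2 (0.273). Icam2, an adhesion molecule bound by LFA-1, averaged 7.61 ± 0.208 in Ly49E+CD8aa-, 6.41 ± 0.106 in Ly49E+CD8aa+ and 6.22 ± 0.187 in Ly49E-CD8aa+ (SD, n = 3). Crtam was thus the second of these 18599 genes in likeness to Cd226, while Cd96 and Tigit ranked 15708 and 17365.

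For Crtam they were Adgre5 (0.169), Klrc2 (0.178) and Klra8 (0.181), and Cd226 ranked 25. Adgre5, which encodes the adhesion receptor CD97, was at 10.10 ± 0.160 in Ly49E+CD8aa-, 8.56 ± 0.0703 in Ly49E+CD8aa+ and 8.37 ± 0.296 in Ly49E-CD8aa+ (SD, n = 3). Klrc2 (NKG2C) and Klra8 (Ly49H), NK receptors open to cross-hybridisation with their relatives, were at 5.94 and 5.55 in Ly49E+CD8aa- and between 3.89 and 4.42 in the CD8aa+ populations. Those last values were near or under the arrays' 25th percentiles of 4.40 to 4.47.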

How the data were processed

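The authors deposited log2 expression for each transcript cluster and array, made with RMA according to their notes (per the submitters' processing notes). RMA's version, genome build and annotation were not given in the sources used here. That the scale is log2 follows from the values, which ran from 1.84 to 13.84. Exact ties occurred: 17460 of 35556 rows (49.1%) held the same value on 2 or more arrays. Of the rows, 21789 had 1 platform symbol, 1621 had several and 12146 were not listed; the row with the highest mean stood for a gene. All 19938 genes were fitted with limma 3.58.1 in R 4.3.3, with 1 mean per population, all 9 arrays, without filter or block. All tests were 2-sided, and calls were made at a Benjamini-Hochberg adjusted p under 0.05. The median SE of a difference was 0.0976, and the number of arrays limits the precision. The fit and the permutation test were tested on simulated data. The alternatives included fits of only the arrays compared, filters on dim rows, renormalization, centring, trend, robust and weighted fits, the replicate block, the mean of a gene's rows and each array left out. Itgal and Itgb2 were added to these after the data were seen. Promoters came from RefSeq.

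The 4 genes and the lists of other nectin molecules, signalling partners, sort markers and cell type markers were chosen with earlier results of these data known. Named genes were the receptors, the called members of the lists, fixed sort markers, and for receptors whose population means spanned at least 1 log2 unit the 3 genes of likest pattern, without predicted genes and antigen receptor segments. Further genes of the lists named in the text were chosen after their values were seen. Cadm2, Pvrig and Lck were not analysed here. Of B and plasma cell markers limma called 0 of 4 in the 3 comparisons, with 3, 1 and 1 at an unadjusted p under 0.05.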

Additional observations from a re-analysis of the deposited data

How the results depend on the processing

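Up to 19 alternatives were run for each difference, and 12 for each ratio. The Cd226 and Crtam differences kept their calls in all of them, except that of Cd226 between the CD8aa+ populations, which was lost in 10 of 19. It was 0.80 with the 6 arrays alone (limma adjusted p = 0.215) and with the replicate block (0.0785), and 0.74 to 0.91 when 1 array was left out. Tigit and Cd96 passed in 0 of the alternatives, and their signs did not change. Same-numbered arrays were not treated as paired in the main fit, and the replicate block was run as an alternative. The correlations of their deviations, -0.0627 to 0.222, do not settle whether arrays of the same number were paired. Those between replicates 1 were 0.127, 0.172 and 0.222, and replicate 1 correlated negatively with every other number. Because deviations were taken from each population's own mean, these negative signs are not independent of the positive ones. The block changed no other call of the 4 receptors, and 14 genes in place of 22 were then called lower in the Ly49E+ one of the CD8aa+ populations. With the 6 arrays alone that comparison had 0 higher and 0 lower genes, and Ly49E+CD8aa+ against Ly49E+CD8aa- had 62 higher in place of 95, and Ly49E+CD8aa- against Ly49E-CD8aa+ had 78 lower in place of 160. Without rows under the median of row means, 12 genes were lower in the first comparison. When 1 array was left out, its counts ran from 1 to 4 higher and from 4 to 28 lower. It left 55 to 87 genes higher in Ly49E+CD8aa+ than Ly49E+CD8aa-, and 82 to 130 lower in Ly49E+CD8aa- than Ly49E-CD8aa+. The adjusted p of the Tigit to Cd96 ratio ran from 0.0171 to 0.896. The Itgb2 difference between the CD8aa+ populations, which did not pass, was 0.03, ran from -0.00332 to 0.0764 with 1 array left out, and was negative without Ly49E+CD8aa+ replicate 2. The causes were not tested.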

Other observations

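The rows of Cd226 and Tigit held exact ties between arrays, while those of Cd96 and Crtam held none. Cd226 had the same value, 9.64, in Ly49E+CD8aa+ replicates 2 and 3, and its SD there was 0.0167, beside 0.0851 in Ly49E+CD8aa- and 0.194 in Ly49E-CD8aa+. Tigit had the same value, 9.12, in Ly49E+CD8aa+ replicate 3 and Ly49E-CD8aa+ replicate 3. What the ties add to the SE of a difference was not tested.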
